A study of Homo sapiens with 18 samples.

Results

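The mitotic kinesins are the motor proteins that build the spindle, move and align chromosomes on it and serve cytokinesis at the end of division. The genes described here were KIF2C, KIF4A, KIF11, KIF14, KIF15, KIF18A, KIF18B, KIF20A, KIF23 and KIFC1. They were chosen by gene name, with earlier results of these data known, and all 10 were present as single rows among the 58302 genes of the expression table. All 10 passed the filter on low values (10 or more in at least 3 of the libraries compared) in every comparison.

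Messenger RNA was sequenced from TPC1, an established human cell line of papillary thyroid carcinoma origin, and from D11, a single Dicer1 (+/-) clone of it in which CRISPR-Cas9 had disrupted 1 of the alleles. Cells of each line were non-transfected (NT), given a negative control siRNA (NC) or given an siRNA against Dicer1 (siDicer), with 5 nM of siRNA and RNA collection on day 4. Each of the 6 groups held 3 libraries, 18 in all. NT and NC together formed the control group of 6 libraries in each line, so both the TPC1 control and the TPC1 siDicer cells carried unedited Dicer1 alleles, whereas every D11 library carried the disrupted allele. The methods of the study say of its experiments in general that they were repeated independently, while the labels of these libraries do not say that replicates were separate cultures. The p-values given here measure the spread between these libraries, which may be technical.

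Kinesins walk along microtubules by hydrolysing ATP. Most of them carry cargo throughout the cell cycle, while the mitotic members are made mainly in G2 and M phase and are degraded or silenced after division. Their genes are classic targets of a promoter switch: in resting and G1 cells the DREAM complex (E2F4 or E2F5 with RBL1 or RBL2 and the LIN proteins) keeps them off through an element called CHR, and later in the cycle MYBL2 and FOXM1 join the same LIN proteins to turn them on. NF-Y, bound at CCAAT boxes just upstream, is needed for that activity. In bulk RNA their levels generally follow the share of dividing cells.

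Because all members are usually described under this shared promoter logic, their promoter sequences are shown before their values. In the RefSeq promoters of GRCh38.p14, running from 250 bases before to 50 bases after the start of each gene, TTTGAA or its variant TTTAAA was present on either strand in 10 of the 10 members, against 24.3% of all 27305 promoters and 2 of the 20 promoters found for transport and other kinesins. TTTGAA alone was present in 8 members, against 15.4% of all promoters. CCAAT was present on either strand in 8 members, all but KIF2C and KIF15, against 35.7% of all promoters. Both kinds of motif occurred together in 8 members and in 9.49% of all promoters. Of the 18 promoters found for spindle and cytokinesis partners, 83.3% held TTTGAA or TTTAAA, 83.3% held CCAAT and 77.8% held both. In the members' windows the letters of a CCAAT never overlapped those of a CHR motif. A match of letters is a description of the sequence and shows no binding.

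Of the members, 4 had both motifs whole within the last 100 bases before the start, outside or nearly outside annotated exons, and these stretches are printed on the gene's own strand. Capitals mark the motifs, and ATTGG and TTCAAA are CCAAT and TTTGAA read on the opposite strand.
KIF4A, chrX:70290004-70290103, plus strand: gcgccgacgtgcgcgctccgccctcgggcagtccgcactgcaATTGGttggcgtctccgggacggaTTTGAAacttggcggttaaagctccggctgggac
KIF11, chr10:92593030-92593129, plus strand: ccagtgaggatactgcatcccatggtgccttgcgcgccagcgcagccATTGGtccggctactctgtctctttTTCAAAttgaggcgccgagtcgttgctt
KIF18A, chr11:28108157-28108256, minus strand: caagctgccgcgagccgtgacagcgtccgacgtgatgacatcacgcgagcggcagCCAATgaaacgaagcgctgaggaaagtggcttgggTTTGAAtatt
KIF20A, chr5:138179012-138179111, plus strand: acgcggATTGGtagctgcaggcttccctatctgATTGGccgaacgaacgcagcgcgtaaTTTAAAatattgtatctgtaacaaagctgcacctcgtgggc
The CHR motif began 34 bases before the start in KIF4A, 28 in KIF11, 10 in KIF18A and 41 in KIF20A. In KIF23 it began 55 bases before the start, just downstream of a CCAAT that began at 64. Of these 4 genes with printed sequences, KIF11 was called lower after siDicer in both lines and KIF4A, KIF18A and KIF20A in neither.

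Expression is given as reads per 20 M aligned reads (M for mega), the scale on which the authors deposited it. Depth was 11.3 to 23.2 M reads per library, so 1 read was worth 0.861 to 1.77 units and the members stood at 369 to 5321 units in every library. For 12 of the 18 samples the title and the description disagreed on the group, and the description was followed. The target of the siRNA, DICER1, encodes the RNase that cuts microRNA precursors. It was measured at 1582, 1510 and 1397 in non-transfected TPC1 cells (replicates 1, 2 and 3), at 2492, 1901 and 2366 with the negative control and at 255, 395 and 246 after siDicer. The D11 values were 655, 1157 and 923 without transfection, 1536, 1433 and 1407 with the negative control and 297, 451 and 277 after siDicer. Every library described as siDicer was thus below every control library of its line, and replicate 2 kept the most DICER1 in both lines. Over all genes, TPC1 NT replicate 2 and TPC1 siDicer replicate 2 lay farthest from the other libraries of their groups among the TPC1 libraries. PAX8, a thyroid transcription factor, was expressed at 7361 to 14886 units, whereas the thyroid genes TSHR, SLC5A5 and NKX2-1 did not exceed 2 units in any library. The summed level of 8 leukocyte and endothelial markers was 7 to 34 units in every library, with CD3E at 0, so signal from such cells was at or near 0.

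In control cells the members spanned a wide range of levels per length of transcript. Per kb of annotated exon, the mean of the 6 TPC1 control libraries was 867 ± 108 units for KIF11 and 843 ± 125 for KIFC1, and fell through KIF2C (706 ± 76.4), KIF20A (662 ± 113), KIF23 (511 ± 63.4), KIF18B (431 ± 65.1) and KIF4A (420 ± 34.0) to KIF14 (259 ± 22.4), KIF18A (207 ± 30.5) and KIF15 (125 ± 20.4), as mean ± SD. For neighbors in that order the ranges of mean ± SD overlapped, except that KIF4A was separated from KIF14 and KIF18A from KIF15. In D11 the order was the same apart from KIFC1 (896 ± 45.2) standing before KIF11 (869 ± 74.7), and here KIF20A was also separated from KIF23 by more than their SDs. KIF15, a motor with a role that overlaps that of KIF11, was the lowest member in both lines. After siDicer the order of the means per kb changed for most members. In both lines KIF20A moved from rank 4 to rank 2, KIF2C from 3 to 4, KIF23 from 5 to 7, KIF14 from 8 to 9 and KIF18A from 9 to 8, and KIF11 was at rank 3. KIF4A moved from rank 7 to rank 5 in TPC1 and to rank 6 in D11, KIFC1 was first in both lines and KIF15 last. The shifts are a description with no test.

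In TPC1 after siDicer transfection, 4 of the 10 members fell by the test used for all genes (limma adjusted p under 0.05 together with a change of 1.5-fold or more), namely KIF14, KIF2C, KIF23 and KIF11, and none rose. Among all 18475 genes tested, 4.16% were called lower. In D11, 5 of the 10 fell, namely KIF2C, KIF23, KIF11, KIF14 and KIF18B, where 6.75% of 18413 genes were called lower. The fitted change was negative for 10 of 10 members in each line, with a median of -0.48 on the log2(value + 1) scale in TPC1 and -0.59 in D11, while the median over all genes tested was -0.04 in both. Every siDicer library lay below every control library for 4 members in TPC1, where 9.91% of all genes tested did so, and for 7 in D11, where 14.1% did. In bulk RNA, fewer dividing cells and less of a transcript per dividing cell cannot be told apart. Without a fold minimum, 5 members passed in TPC1 (7.94% of all genes tested, lower) and 10 in D11 (12.8%), so the counts in D11 rest on the fold minimum. The TPC1 count was 2 without siDicer replicate 1 and 2 without siDicer replicate 3, with KIF11 and KIF23 lost each time at limma adjusted p between 0.0585 and 0.0659, and the D11 count was 8 without siDicer replicate 2 and 3 without siDicer replicate 3. With groups taken from the titles, which mixes libraries of high and low DICER1, 0 members were called in either line.

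**Figure D1:**
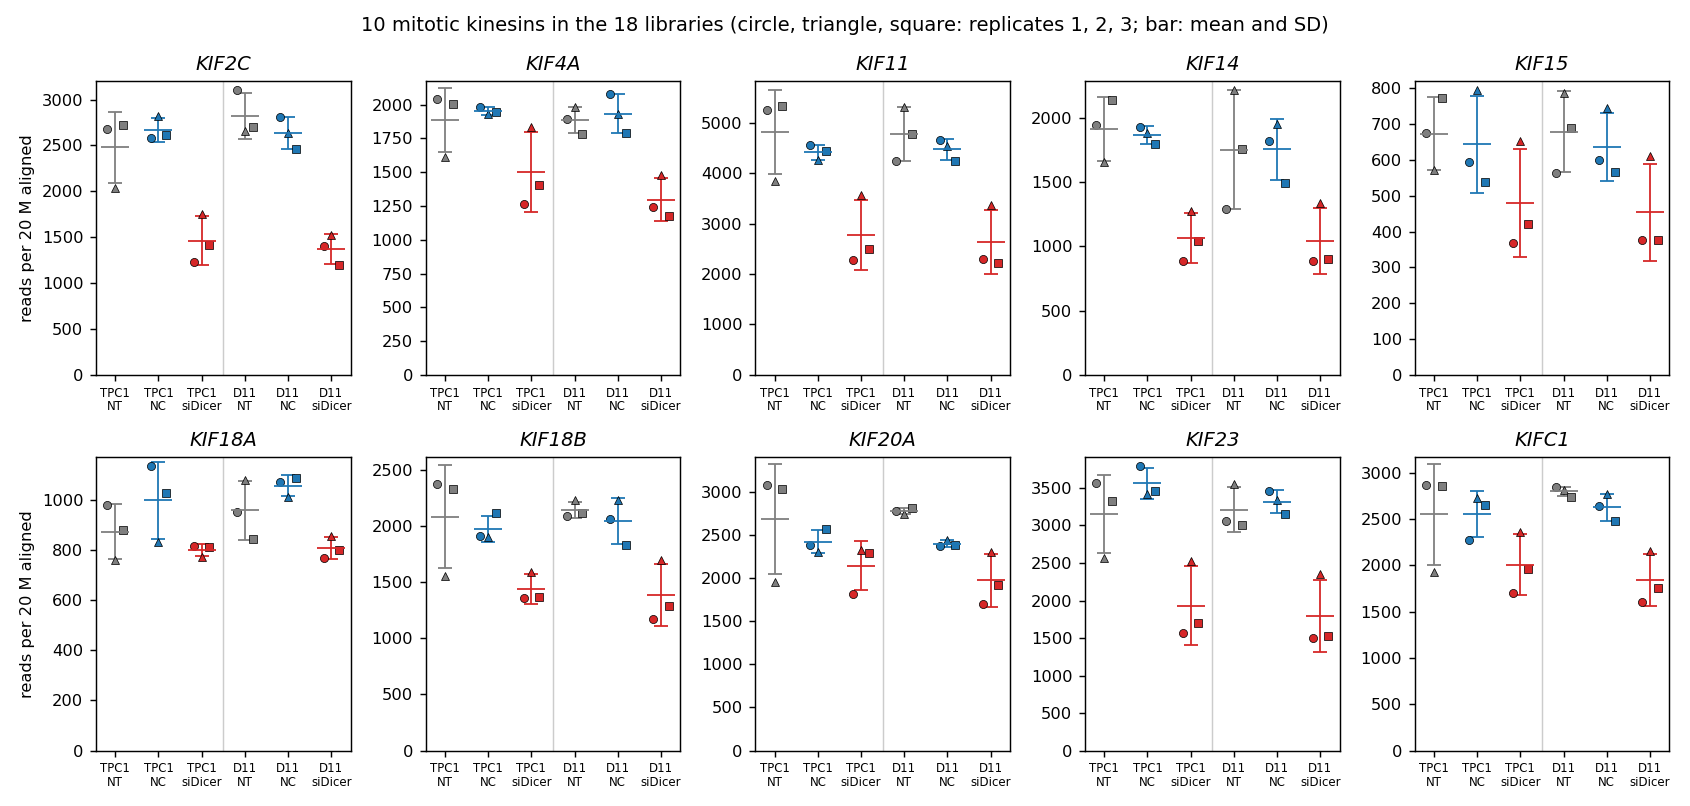
Value of each mitotic kinesin (y axis, reads per 20 M aligned reads, from 0) in the 18 libraries, by group on the x axis; circles, triangles and squares are replicates 1, 2 and 3, and the bars give the mean and SD of the 3 libraries. For KIF2C the siDicer libraries sit at 1199 to 1750 and all 12 control libraries at 2033 to 3106, whereas for KIF18A in TPC1 the siDicer libraries (771 to 816) lie within the range of the controls (760 to 1135).

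Among the motors that separate the spindle poles, KIF11 (Eg5) slides antiparallel microtubules apart and is needed for a bipolar spindle. Its values in TPC1 siDicer were 2272, 3572 and 2493 in replicates 1, 2 and 3, and the TPC1 controls ran from 3852 through a median of 4493.5 to 5321. All 3 siDicer libraries were below all 6 controls, with replicate 2 nearest to them. In D11 siDicer the values were 2301, 3365 and 2220, below a control range of 4239 to 5308 with a median of 4591.5. KIF11 fell by 0.75 ± 0.15 (SE) in TPC1 (limma adjusted p = 0.0092) and by 0.84 ± 0.13 in D11 (limma adjusted p = 0.00103), both on the log2 scale.

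KIF15 supports the same pole separation and can take it over when KIF11 is inhibited. In TPC1 siDicer it was measured at 369, 652 and 421, against 539 to 796 in the controls with a median of 635. Replicate 2 lay inside the control range and the other siDicer libraries below it. The D11 siDicer values were 376, 610 and 375, against 563 to 786 with a median of 643.5, again with replicate 2 inside. The change of -0.48 in TPC1 had a 95% confidence interval of -0.89 to -0.07 and did not pass the test (limma adjusted p = 0.106), and in D11 a change of -0.56 had a limma adjusted p of 0.0315 but was smaller than the fold minimum.

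KIFC1 (HSET) walks to the minus end, pulls the poles together and clusters extra centrosomes in tumor cells. It was measured at 1705, 2361 and 1958 in TPC1 siDicer and at 1926 to 2873 in the controls, with a median of 2693.5, so that the groups overlapped. In D11 the siDicer values of 1610, 2155 and 1757 were all below the control range of 2475 to 2846, with a median of 2757. The change was -0.34 in TPC1 (95% confidence interval -0.66 to -0.03, limma adjusted p = 0.13) and -0.57 in D11 (limma adjusted p = 0.00213, below the fold minimum). The motor that opposes KIF11 in the spindle thus had the smaller fitted change of the pair in both lines, and the difference between the genes was not tested.

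KIF2C (MCAK) does not walk but takes tubulin off microtubule ends, which frees wrongly attached kinetochores. In D11 siDicer it was measured at 1402, 1523 and 1199, and the D11 controls ran from 2465 through 2678.5 to 3106. No library of one group came near the other, and the fall of 0.99 ± 0.10 on the log2 scale (limma adjusted p = 0.000124) took KIF2C to 50.4% of its control mean. In TPC1 the siDicer values were 1225, 1750 and 1416 and the controls 2033 to 2821 with a median of 2644.5, the lowest control being NT replicate 2. There KIF2C fell by 0.82 ± 0.13 (limma adjusted p = 0.00335), to 56.8% of the control mean.

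The kinesin-8 motors KIF18A and KIF18B act at the plus ends of microtubules, KIF18A to damp the movements of chromosomes at the metaphase plate and KIF18B to shorten astral microtubules together with KIF2C. KIF18A in TPC1 was 816, 771 and 811 after siDicer and 760 to 1135 in the controls, with a median of 929.5. The groups overlapped, and KIF18A was the only member for which siDicer replicate 2 was not the highest of the siDicer libraries in TPC1. In D11 it was 767, 857 and 799 against 844 to 1087, with a median of 1040.5. Its change was -0.21 in TPC1 (95% confidence interval -0.48 to 0.06, limma adjusted p = 0.268) and -0.31 in D11 (limma adjusted p = 0.0477, below the fold minimum).

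KIF18B was measured at 1356, 1590 and 1370 in TPC1 siDicer and at 1554 to 2371 in the controls, with a median of 2011. A single siDicer library, replicate 2, exceeded a single control, NT replicate 2. In D11 siDicer it was 1170, 1697 and 1291, below all controls (1829 to 2237, median 2103). KIF18B fell by 0.61 ± 0.12 in D11 (limma adjusted p = 0.00348), a call that was lost under TMM and RLE scaling, with NC alone as the control (-0.57), and without siDicer replicate 1 (-0.50) or replicate 3 (-0.57), each time with the fold under the minimum. In TPC1 its change of -0.49 had a limma adjusted p of 0.0317 and stayed short of the fold minimum, and it was called there, at -0.63, with TPC1 NT replicate 2 and siDicer replicate 2 left out together.

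KIF4A, a chromokinesin that condenses chromosome arms and sets the length of the central spindle with PRC1, was measured at 1265, 1831 and 1407 in TPC1 siDicer and at 1613 to 2043 in the controls, with a median of 1963.5. Its D11 siDicer values of 1243, 1476 and 1173 were below the whole control range of 1784 to 2077, with a median of 1912.5. The change was -0.37 in TPC1 (95% confidence interval -0.63 to -0.11, limma adjusted p = 0.063) and -0.56 in D11 (limma adjusted p = 0.00192, below the fold minimum). KIF4B, an intronless copy of KIF4A with which reads could be shared, did not exceed 4 units in any library. The sources used here do not say how reads matching both genes were counted, so this value does not settle whether KIF4A lost any.

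Cytokinesis is served by 3 members. KIF23 (MKLP1) pairs with RACGAP1 in the centralspindlin complex that marks the division plane. Its values were 1563, 2531 and 1695 in TPC1 siDicer, and the controls ran from 2572 through 3445 to 3792. Replicate 2 came closest to the lowest control, NT replicate 2, without overlap. In D11 siDicer the values were 1498, 2353 and 1528, against 3012 to 3551 with a median of 3245. KIF23 fell by 0.82 ± 0.16 in TPC1 (limma adjusted p = 0.0084) and by 0.89 ± 0.13 in D11 (limma adjusted p = 0.000875), and with NT alone as the control the TPC1 call was lost (limma adjusted p = 0.0655).

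KIF14, which recruits citron kinase (CIT) to the midbody, was measured at 884, 1273 and 1044 in TPC1 siDicer, below all controls (1654 to 2142, median 1906). In D11 it was 884, 1334 and 905, and the controls ran from 1290 to 2213 with a median of 1788. The lowest D11 control, NT replicate 1, was below siDicer replicate 2, so those groups overlapped by 1 library. KIF14 fell by 0.84 ± 0.12 in TPC1 (limma adjusted p = 0.00233) and by 0.76 ± 0.17 in D11 (limma adjusted p = 0.00822). In D11 the call was lost without siDicer replicate 3 (limma adjusted p = 0.0576).

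KIF20A (MKLP2) brings the chromosomal passenger complex, with AURKB, to the central spindle. In TPC1 siDicer its values were 1813, 2323 and 2291 and those of the controls 1948 to 3070, with a median of 2473.5, so that 2 of the 3 siDicer libraries lay inside the control range. In D11 siDicer it was 1695, 2302 and 1919, below all controls (2365 to 2813, median 2590). The change was -0.24 in TPC1 (95% confidence interval -0.56 to 0.08, limma adjusted p = 0.294) and -0.40 in D11 (limma adjusted p = 0.0206, below the fold minimum). Exons of KIF20A overlap BRD8 and CDC23 on the opposite strand, and since the sources used here do not say whether reads were counted by strand, its values are uncertain. Exons of KIF4A (PDZD11), KIF23 (KIF23-AS1), KIF2C and KIFC1 also overlap other genes on the opposite strand, and the same limit holds for them.

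Within single libraries, the ratio of KIF20A to KIF23 was 0.628 to 0.913 in the TPC1 controls and 1.16, 0.918 and 1.35 in TPC1 siDicer replicates 1, 2 and 3. In D11 it was 0.684 to 0.934 in the controls and 1.13, 0.978 and 1.26 after siDicer. Every siDicer library thus had a higher ratio than every control library of its line, with replicate 2 nearest to the controls. The ratio of KIF18A to KIF18B overlapped between siDicer and control libraries in both lines (for TPC1, 0.377 to 0.595 in controls and 0.602, 0.485 and 0.592 after siDicer), as did that of KIF11 to KIF15. These ratios are descriptions with no test, and exons of KIF20A and KIF23 both overlap genes on the opposite strand. Only these pairs of members are given, without the share of all gene pairs that separate in this way. In TPC1 the nearest siDicer and control libraries stood at 0.918 and 0.913. Nothing particular to KIF20A and KIF23 is read from the separation.

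**Figure D2:**
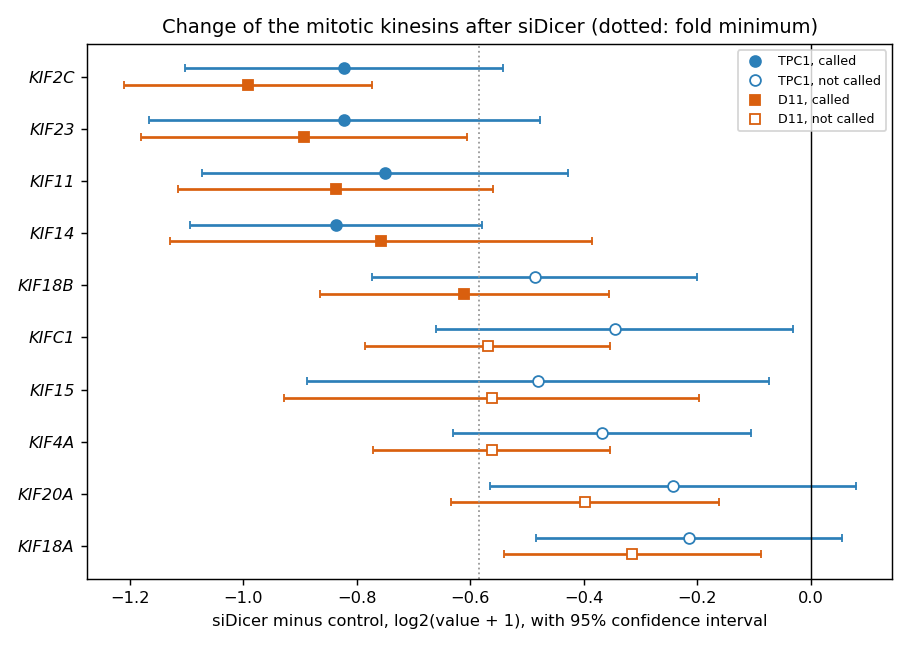
Fitted change of each mitotic kinesin after siDicer (x axis, siDicer minus control on the log2(value + 1) scale, with 95% confidence interval) in TPC1 (circles) and D11 (squares); filled symbols passed the test and the dotted line is the fold minimum of 1.5. KIF2C, KIF23, KIF11 and KIF14 are filled in both lines, and KIF18A (-0.21 and -0.31) and KIF20A (-0.24 and -0.40) lie nearest to 0.

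In the siDicer libraries and in TPC1 NT replicate 2, 10 of 10 members stood below their control mean, against 0 to 9 of 10 in the other control libraries. With each member set to 100% at its control mean, the median of the 10 members was 61.0%, 80.4% and 65.7% in TPC1 siDicer replicates 1, 2 and 3, and 56.5%, 78.4% and 59.2% in D11. Replicate 2 was the siDicer library with the highest value for 9 of 10 members in TPC1 and for 10 of 10 in D11. In the same libraries DICER1 stood at 13.6%, 21.1% and 13.1% of its control mean in TPC1 and at 25.1%, 38.1% and 23.4% in D11, so that replicate 2 held both the most DICER1 and the most kinesin transcript in each line. The members did not always move together in controls: 5 of 10 were below their control mean in TPC1 NC replicates 1 and 2 each, and they ran from 73.5% to 114% in D11 NT replicate 1. TPC1 NT replicate 2 stood apart with a member median of 80.1%, and it held the lowest of the 6 control values for 9 of the 10 members. In TPC1, siDicer replicate 2 exceeded NT replicate 2 for 6 of the 10 members. The part that DICER1 levels or a shared replicate number had in this was not tested. Shares of all genes with these patterns are not given, and the members were correlated with one another over the libraries. Their counts are thus not separate observations, and nothing particular to the kinesins is read from them.

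**Figure D3:**
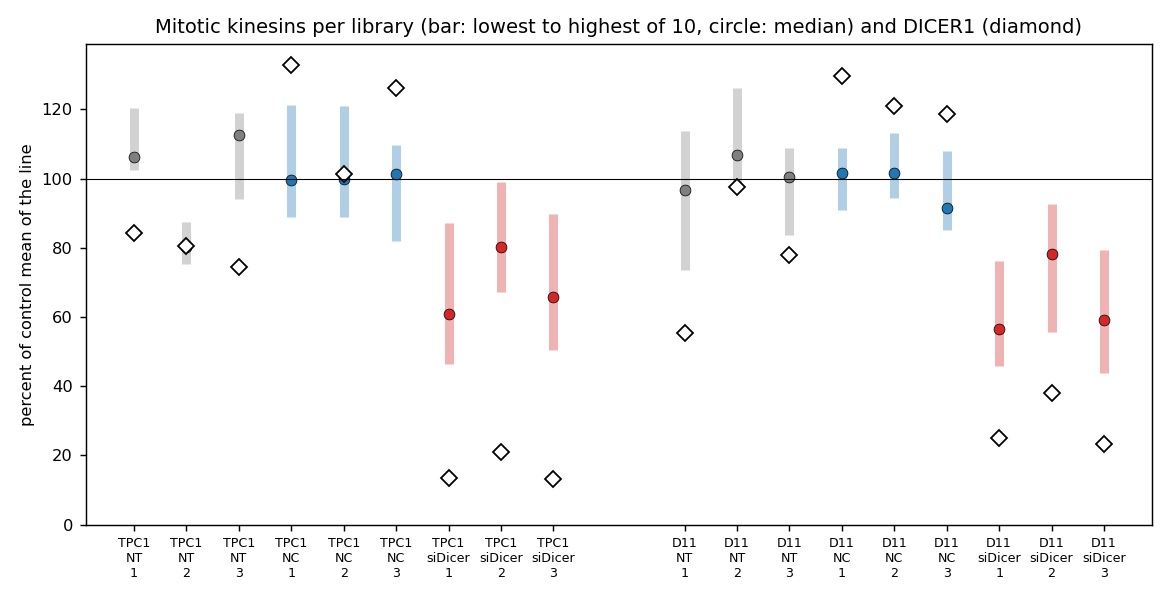
Level of the 10 mitotic kinesins in each library (y axis, percent of the control mean of the line) as a bar from the lowest to the highest member with a circle at the median, and of DICER1 as a diamond, for the 18 libraries on the x axis. In both lines siDicer replicate 2 (medians 80.4% and 78.4%) sits above replicates 1 and 3, and TPC1 NT replicate 2 is the lowest control library (80.1%).

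Across the 18 libraries, which share their 6 groups, the correlation of a member with the mean of the other members was highest for KIF11 (r = 0.986) and lowest for KIF18A (r = 0.647) and KIF20A (r = 0.833). Among 12508 genes with a mean of at least 100 units, those whose pattern was most like the mean of the members were ARHGAP11A (r = 0.990), NCAPH (r = 0.989), KIAA1524 (r = 0.987), NCAPG (r = 0.982) and SGO2 (r = 0.981). These are descriptions over 18 libraries that carry no p-value.

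No member passed the test between the negative control and non-transfected cells. Between NC and NT, limma called 0 of 10 members in TPC1 and 0 of 10 in D11, and voom on recovered reads also called 0 in each. At an unadjusted p under 0.05 there were 0 members in TPC1 and 1 in D11, KIF20A, at a change of -0.21 (limma adjusted p = 0.352). The share of all genes called was 0.0777% lower and 0.0333% higher in TPC1, and 0.2% lower and 0.15% higher in D11, and 11.1% and 13.6% of genes had an unadjusted p under 0.05. Fitted changes of the members ran from -0.12 to 0.19 in TPC1 and from -0.21 to 0.15 in D11. DICER1 itself was higher in every NC library than in every NT library of its line. The change was 0.58 ± 0.12 in TPC1 and 0.71 ± 0.18 in D11, without a call (limma adjusted p = 0.133 and 0.153). Its percentages of the control mean rest on NT and NC together.

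Between D11 and TPC1, which differ by the heterozygous loss of Dicer1 and by cloning, no member passed the test in control cells. In the 12 control libraries DICER1 was lower in D11 than in TPC1 by 0.68 ± 0.12 on the log2 scale (limma adjusted p = 0.00561), whereas 0 of 10 members were called by limma or by voom on recovered reads, and 0 reached an unadjusted p under 0.05, where 9.85% of all genes did. The members differed between the lines by -0.13 (KIF14) to 0.11 (KIF18A). The lowest bound of their 95% confidence intervals was -0.37 (KIF14) and the highest 0.31 (KIF18A). Among all genes, 0.872% were called lower and 0.144% higher in D11. The siDicer libraries of the lines did not differ detectably in any member either: 0 of 10 were called by limma or by voom on recovered reads, and 0 reached an unadjusted p under 0.05, where 4.2% of all genes did. Of all genes, 0.264% were called lower and 0.0225% higher in D11, and the members' changes ran from -0.20 to 0.01.

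Whether siDicer acted differently on the members in D11 and in TPC1 was tested by the interaction of line and siDicer. The extra change in D11 was negative for 9 of the 10 members and ran from -0.22 (KIFC1) to 0.08 (KIF14), with a median of -0.11. None of the 10 was called by limma or by voom on recovered reads, 0 had an unadjusted p under 0.05 where 0.693% of all genes did, and 0 of 19181 genes were called in either direction (0%). A share of 0.693% is far below the p limit itself, so this limma fit was conservative. It held no term for NC against NT and no replicate block. The absence of calls therefore says little about differences between the lines. The lowest bound of the members' 95% confidence intervals was -0.63 (KIF15) and the highest 0.54 (KIF14). An extra change up to that bound was thus not excluded for the gene named. The larger count of called members in D11 was thus not shown to be a difference from TPC1. The extra change was also negative for 20 of 22 spindle and cytokinesis partners (median -0.13) and 8 of 8 proliferation markers (median -0.10). Among transport and other kinesins it was negative for 9 of 22 (median 0.04), and the median over all genes tested was -0.007. The share of all genes with a negative extra change is not given. All lists were measured in the same libraries, so these counts are not separate observations, and no stronger fall in D11 is read from them.

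The other motors linked to mitosis behaved like the members in part. CENPE, which carries chromosomes to the metaphase plate, fell in TPC1 by 0.59 ± 0.12 (limma adjusted p = 0.00979) and in D11 by 0.65 ± 0.15 (limma adjusted p = 0.00994). KIF20B, a kinesin-6 motor of late cytokinesis, fell by 0.61 ± 0.15 and 0.60 ± 0.16 (limma adjusted p = 0.0199 and 0.0179). KIF22, a chromokinesin, fell by 0.60 ± 0.09 in D11 (limma adjusted p = 0.00123), and its change of -0.51 in TPC1 was short of the fold minimum. KIF2A, a relative of KIF2C that is also active outside mitosis, had changes of -0.29 (TPC1) and -0.26 (D11), without a call in either line. These 4 had a median change of -0.55 in TPC1 and -0.60 in D11, where the median over all genes tested was -0.04 in both lines. KIF2B and KIF4B, at 4 units or less, were not tested. Called lower were 2 of the 4 in TPC1 and 3 in D11, beside 4.16% and 6.75% of all genes tested. Of these calls, TMM and RLE scaling each ended both in TPC1 and left 1 in D11, since the fitted folds lay close to the minimum. Leaving out single libraries took the TPC1 count to 0 or 1 (NT replicates 1 and 3, NC replicates 1 and 2, siDicer replicates 1 and 3), and the D11 count to 1 without NC replicate 2 or siDicer replicate 1 and to 0 without siDicer replicate 3.

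Kinesins with tasks outside mitosis gave a different picture. Of 28 transport and other kinesins, 22 passed the filter in both lines, and their median change was 0.07 in TPC1 and 0.13 in D11. Only KIFC3, a minus-end motor of epithelial junctions and Golgi positioning, was called in both lines, and it rose. Its values in D11 siDicer were 2711 to 3183 against 1354 to 1846 in the controls, a rise of 0.86 ± 0.12 (limma adjusted p = 0.000528), and in TPC1 it rose by 0.96 ± 0.21 (limma adjusted p = 0.0132). In D11, KIF26B rose by 0.90 ± 0.22 (limma adjusted p = 0.0116), and KIF7, the ciliary kinesin of Hedgehog signaling, fell by 0.61 ± 0.11 (limma adjusted p = 0.00292). KIF26B changed by 0.67 in TPC1 (limma adjusted p = 0.0832) and KIF7 by -0.57 (limma adjusted p = 0.0334, short of the fold minimum). Called higher among all genes tested were 3.22% in TPC1 and 5.26% in D11, against 1 and 2 of the 22 here. Called lower were 4.16% and 6.75% of all genes, against 0 and 1 of the 22. Nothing particular to these kinesins is read from the counts. The KIFC3 call in TPC1 was lost without siDicer replicate 1 or replicate 3, the TPC1 count was 2 or 3 without NT, NC or siDicer replicate 2, and the D11 count was 1 without siDicer replicate 3.

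**Figure D4:**
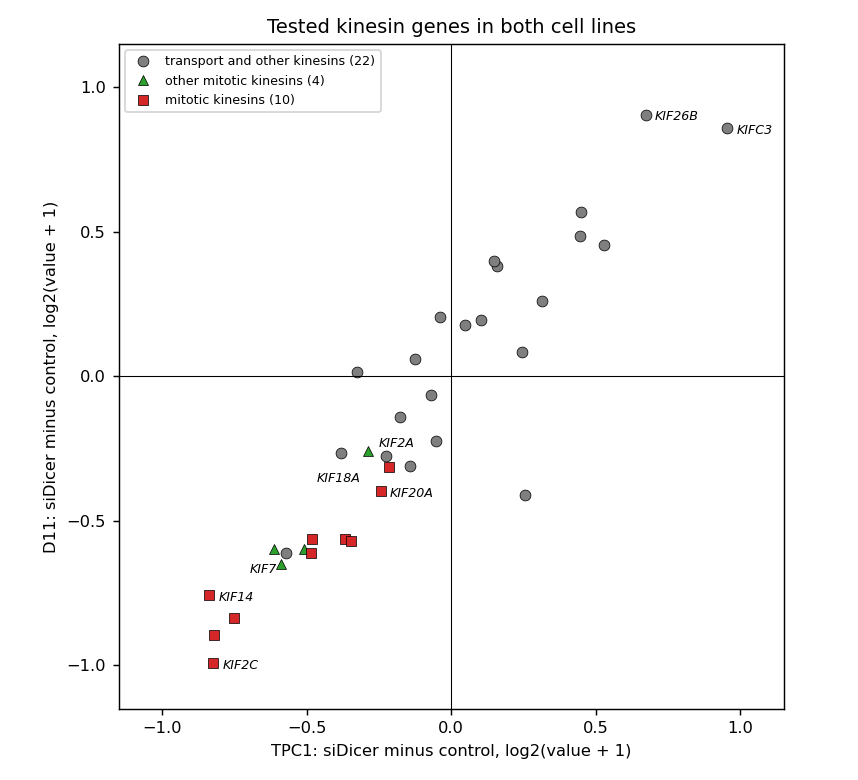
Change after siDicer in TPC1 (x axis) and in D11 (y axis), both on the log2(value + 1) scale, for the kinesin genes that were tested: 10 mitotic kinesins (squares), 4 other mitotic kinesins (triangles) and 22 transport and other kinesins (circles). The squares and triangles all lie below 0 on both axes, from -0.99 to -0.21, while the circles spread from -0.61 to 0.96.

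Of 22 spindle and cytokinesis partners, whose proteins work with these motors, 9 fell in TPC1, where 4.16% of all genes were called lower, and 17 in D11, where 6.75% were. None rose, and the median changes were -0.57 and -0.70. ANLN, the scaffold of the contractile ring, fell by 1.17 ± 0.18 in TPC1 (limma adjusted p = 0.00312) and by 1.22 ± 0.14 in D11 (limma adjusted p = 0.000216). AURKA, the kinase of the spindle poles, fell by 0.90 ± 0.13 and 1.11 ± 0.10 (limma adjusted p = 0.00267 and 6.19e-05), and the kinetochore protein KNSTRN by 1.04 ± 0.15 and 1.11 ± 0.12 (limma adjusted p = 0.00278 and 0.000181).

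These 3 had the smallest limma adjusted p in D11 among the partners, and were named for it. TPX2, which activates AURKA and binds KIF11 and KIF15, fell by 0.60 ± 0.10 in D11 (limma adjusted p = 0.00147) and changed by -0.47 in TPC1 (limma adjusted p = 0.0213, short of the fold minimum). PRC1, the microtubule bundler to which KIF4A, KIF14 and KIF23 bind, fell by 0.65 ± 0.11 in D11 (limma adjusted p = 0.0017) and changed by -0.51 in TPC1 (limma adjusted p = 0.0216). RACGAP1, the partner of KIF23, changed by -0.50 in D11 (limma adjusted p = 0.00255) and -0.37 in TPC1 (limma adjusted p = 0.0751), and CIT, the partner of KIF14, by -0.54 (limma adjusted p = 0.0442) and -0.52 (limma adjusted p = 0.0349), and none of these 4 values passed both limits. The TPC1 count of partners was 5 without siDicer replicate 1 or replicate 3 and 15 without siDicer replicate 2, and the D11 count was 11 without siDicer replicate 1.

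Of the 19 regulators linked to CHR and CCAAT elements, 2 fell in each line and none rose, beside 4.16% of all genes called lower in TPC1 and 6.75% in D11, so nothing particular to the regulators is read from the count. FOXM1, the activator of G2 and M genes, was measured at 2102 to 2930 in TPC1 siDicer and 3072 to 3948 in the controls, and at 2046 to 2705 and 3419 to 4063 in D11. The siDicer libraries were below the controls in both lines. It fell by 0.70 ± 0.10 in D11 (limma adjusted p = 0.000819), while its change of -0.52 in TPC1 (limma adjusted p = 0.0153) was short of the fold minimum. MYBL2 changed by -0.58 in D11 (limma adjusted p = 0.00326, just short of the fold minimum) and by -0.31 in TPC1 (limma adjusted p = 0.274).

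E2F2, an activator of S phase genes, fell by 1.19 ± 0.25 in TPC1 (limma adjusted p = 0.0128) and in D11 it fell by 1.24 ± 0.18 (limma adjusted p = 0.000649). LIN54, the subunit that contacts the CHR, fell by 0.64 ± 0.14 in TPC1 (limma adjusted p = 0.015) and changed by -0.55 in D11 (limma adjusted p = 0.0207). The pocket proteins RBL1 (-0.13 and -0.19) and RBL2 (0.04 and 0.26) and the activator E2F1 (-0.32 and -0.56) were called in neither line. The median over the 19 was -0.19 in TPC1 and -0.14 in D11. In TPC1 both calls were lost without siDicer replicate 1 or replicate 3 and the count was 4 without siDicer replicate 2, and in D11 it was 4 without NC replicate 1 or replicate 3 and 5 without siDicer replicate 2.

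Of 8 general markers of proliferating cells, 3 fell in both lines, where 4.16% (TPC1) and 6.75% (D11) of all genes were called lower. These were CCNB1, CCNA2 and MCM6: CCNB1, the mitotic cyclin, by 0.77 ± 0.13 in TPC1 (limma adjusted p = 0.005) and 1.01 ± 0.11 in D11 (limma adjusted p = 0.000187), CCNA2, the cyclin of S and G2 phase, by 0.67 ± 0.14 and 0.86 ± 0.11 (limma adjusted p = 0.0126 and 0.000422), and MCM6, a subunit of the replicative helicase, by 0.64 ± 0.17 and 0.81 ± 0.14 (limma adjusted p = 0.0326 and 0.00192). The other 5 were not called in either line, with changes of -0.49 and -0.51 for MKI67, -0.47 and -0.57 for CDK1, -0.40 and -0.51 for MCM2, -0.38 and -0.40 for TOP2A and -0.31 and -0.35 for PCNA in TPC1 and D11. CDK1 and TOP2A had a limma adjusted p under 0.05 in both lines, MKI67 in TPC1 alone and MCM2 in D11 alone. These were short of the fold minimum, and PCNA passed the p limit in neither line. The median over the 8 was -0.48 in TPC1 and -0.54 in D11, against -0.48 and -0.59 for the kinesins. Without TPC1 siDicer replicate 1 or replicate 3 the TPC1 count was 1, and without siDicer replicate 2 it was 5 in TPC1 and 6 in D11. The part of a lower share of dividing cells in the kinesin values was not tested.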

How the data were processed

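The authors aligned paired-end reads of stranded poly-A libraries to GRCh38 with STAR 2.5.3a and counted them per gene with HTSeq 0.9.1, per the labels and the methods of the study; the strand setting is not given in the sources used here. The deposited values are a normalised score and not counts: reads scaled to 20 M per library (M for the SI prefix mega) and rounded up. The step between values gave the depth of each library.

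Values entered limma 3.58.1 (R 4.3.3, lmFit and eBayes with trend) as log2(value + 1), which understates changes of low genes. Genes that reached 10 in fewer than 3 libraries of a fit were left out. P-values were adjusted by Benjamini-Hochberg over all genes tested, and calls required an adjusted p under 0.05 with a change of 1.5-fold or more. The siDicer libraries were tested against NT and NC together, as in the study, then NC against NT, D11 against TPC1, and the interaction. Groups came from the descriptions. Code was tested on simulated data.

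The members and gene lists were chosen with earlier results of these data known. Named genes followed a rule: all members, tested mitotic kinesins, called transport kinesins, 4 partners and the 3 with the smallest adjusted p in D11, 6 regulators and any called, and 8 proliferation markers. Positions and exon lengths came from GENCODE on GRCh38, and promoters from RefSeq on GRCh38.p14.

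Pairing by replicate number was checked by correlating deviations from group means over the genes tested. In D11, 9 of 9 pairs with the same number exceeded 0.1 (0.108 to 0.504), so these numbers were taken to pair the libraries. What a number marks is not given in the labels, and the decision depended on the genes used. Over genes with a mean of at least 100, 8 of 9 pairs exceeded 0.1 in D11 (lowest 0.0752). In TPC1, 9 of 9 did (0.109 to 0.676). The p-values, SEs and confidence intervals printed here come from fits without this pairing, in D11 as in TPC1. The pairing entered only the replicate block, which was run as an alternative. Alternatives were other scalings, filters and pseudocounts, NT or NC alone, no fold minimum, a replicate block, voom on recovered reads, 1 fit of all libraries, groups from titles, and each library left out in turn. Leaving out TPC1 NT replicate 2 and siDicer replicate 2 together was chosen after seeing the data.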

Additional observations from a re-analysis of the deposited data

Results flagged for a closer look

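In the TPC1 control group of 6 libraries, NT replicate 2 lay far below the others for 2 members. KIF2C was 2033 there and 2584 in the next lowest control, a gap of 0.699 of the whole range of the group. KIF4A was 1613 there and 1927 in the next lowest, a gap of 0.730 of the range. Both gaps are above the 95% critical value of Dixon's test. There were 20 groups examined, 10 members in each line, and chance flags about 1 in 20; both values come from the same library. With that library and TPC1 siDicer replicate 2 left out together, 6 members were called in TPC1 in place of 4.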

How the results depend on the processing

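For the members, 402 of 430 recomputed changes outside the grouping by titles kept their direction and their side of the threshold, 11 lost the call, 17 gained it and 0 changed direction. KIF2C and KIF14 in TPC1 and KIF2C, KIF11 and KIF23 in D11 were called under each of these alternatives. In the comparisons of NC with NT, of the lines and of the interaction, the count of called members was 0 under every alternative run. With a replicate block the counts of called members were 4 in TPC1 and 5 in D11, and the block changed no call of a member. In TPC1, deviations correlated above 0.1 in 8 of 9 same-numbered pairs (0.0994 to 0.542), so those numbers were not taken as a pairing, but 9 of 9 did over genes with a mean of at least 100.

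Leaving out 1 library at a time, the count of called members was 2 to 5 in TPC1 and 3 to 8 in D11, that of other mitotic kinesins 0 to 3 in both lines, of transport and other kinesins 0 to 3 and 1 to 4, of partners 5 to 15 and 11 to 19, of regulators 0 to 4 and 2 to 5, and of proliferation markers 1 to 5 and 3 to 6. Without a fold minimum the counts in TPC1 were 4 other mitotic kinesins, 5 transport and other kinesins, 17 partners, 4 regulators and 6 proliferation markers, and in D11 10 members, 5 transport and other kinesins, 8 regulators and 6 proliferation markers. TMM scaling gave 0 other mitotic kinesins, 2 transport and other kinesins and 1 regulator in TPC1 and 1 other mitotic kinesin in D11; RLE scaling gave 0 other mitotic kinesins in TPC1 and 1 in D11. A pseudocount of 10 gave 1 other mitotic kinesin in TPC1. NT alone as control gave 0 other mitotic kinesins, 0 regulators and 1 proliferation marker in TPC1, and 4 regulators and 5 proliferation markers in D11. NC alone gave 1 other mitotic kinesin and 0 regulators in TPC1 and 1 other mitotic kinesin in D11. Leaving out TPC1 NT replicate 2 and siDicer replicate 2 together, chosen after seeing the data, gave 3 transport and other kinesins, 18 partners, 5 regulators and 5 proliferation markers in TPC1. Causes of these shifts were not tested, other than that calls lost to scaling lay near the fold minimum.

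With groups from the titles, 0 members, 0 other mitotic kinesins, 0 transport and other kinesins, 0 partners, 0 regulators and 0 proliferation markers were called in TPC1, and 0 of each in D11. The change after siDicer in TPC1 then turned positive for KIF2C (0.042), KIF4A (0.0079), KIF11 (0.019), KIF14 (0.049), KIF18A (0.046), KIF18B (0.11), KIF20A (0.20), KIFC1 (0.11), KIF2A (0.027), KIF7 (0.15), TPX2 (0.052), RACGAP1 (0.085), CIT (0.0397), AURKA (0.086), ANLN (0.064), FOXM1 (0.0599), MYBL2 (0.11), RBL1 (0.082), E2F1 (0.018), E2F2 (0.17), MKI67 (0.13), TOP2A (0.013), MCM2 (0.13), MCM6 (0.10) and CCNA2 (0.0031), and negative for KIF26B (-0.10) and RBL2 (-0.26). In D11 it turned positive for CIT (0.016), MYBL2 (0.0057), E2F1 (0.037) and E2F2 (0.0803). RBL2 in TPC1 was also negative with NT alone (-0.061), and ran from -0.066 to 0.17 when libraries were left out in turn. By construction this grouping mixes libraries that differ in DICER1.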
